A study of Homo sapiens with 9 samples.

Results

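The RAB and ARL genes encode small GTPases of membrane traffic. The set described here holds every gene whose symbol on the array platform is RAB or ARL followed by a number and at most 1 letter from A to D. This rule used names alone and found 66 genes, 57 RAB and 9 ARL, among 19775 genes measured. They were measured in Hec50 cells, an established line of an aggressive endometrial cancer, to ask which genes respond when miR-200c is restored. Of 9 Affymetrix arrays, 3 carried RNA of cells given 60 nM miR-200c mimic for 48 hours, 3 of cells given 60 nM scrambled negative control for 48 hours, and 3 of mock-transfected cells, for which the labels state no dose or time. All arrays came from this 1 line, and the labels do not say that replicates were separate cultures, so p-values reflect only how much these samples vary, and that variation may be technical.

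RAB and ARL proteins bind GTP or GDP and act as switches: when GTP-bound they sit on a membrane and recruit effectors that bud, move, tether or fuse vesicles. Exchange factors of the DENN and TRAPP groups load GTP, and GTPase-activating proteins, most of them with a TBC domain, end the signal. RAB proteins need a prenyl group to hold to membranes, which a geranylgeranyl transferase attaches with the help of escort proteins. In epithelial cells these switches sort proteins to apical and basolateral surfaces, and endometrial glands use them for secretion.

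The mimic is a copy of a small RNA whose family is defined by bases 2 to 8, the seed, which pairs with messenger RNAs. The mature sequences are shown because the seed is what a mimic shares with its family (RefSeq, GRCh38.p14, 5′ to 3′, seed in capitals). The first 3 share 1 seed and the other 2 share another. The first, miR-200c, lies at chr12:6963742-6963764 on the plus strand.
miR-200c-3p: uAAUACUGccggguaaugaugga
miR-200b-3p: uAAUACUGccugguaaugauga
miR-429: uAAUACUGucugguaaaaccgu
miR-200a-3p: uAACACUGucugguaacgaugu
miR-141-3p: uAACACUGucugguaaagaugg

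A known target of this family is ZEB1, a repressor that binds the E-box CACCTG, whose reverse complement is CAGGTG. On these arrays ZEB1 fell in mimic cells by 1.57 on the log2 scale relative to scrambled controls (SE 0.06, adjusted p = 1.43e-07), and the epithelial cadherin CDH1 rose by 3.26 (SE 0.12, adjusted p = 8.82e-08). Averaged over every probe set, ZEB1 fell by 0.99 and CDH1 rose by 1.92. Promoters were therefore searched for these 6 letters on both strands. RefSeq held a promoter, from 250 bases before to 50 bases after the start, for 53 of the 66 genes. The E-box was present in 10 of the 53 (18.9%), against 20.6% of all 27305 promoters in the same table. It was present in 1 of 6 promoters of genes that rose with the mimic, in 3 of 8 of genes that fell and in 6 of 39 of those that did not pass the test. A match is a run of letters and no measured binding site. The 3 windows below were chosen after the copies and changes were seen. RAB17 and RAB25 had the most copies of the E-box in the set, and RAB4A had the largest fall. RAB17 rose with the mimic and is the 1 of 6 above. RAB25, an epithelial RAB, did not pass the test. E-boxes are in capitals. RAB17 (GRCh38.p14, chr2:237590685-237590984, minus strand) had 3 copies, with first bases at -78, -63 and -29 from the start. RAB4A (chr1:229270861-229271160, plus strand) had 1 copy at -154, and RAB25 (chr1:156060910-156061209, plus strand) had 2, at -41 and 37.
RAB17 promoter: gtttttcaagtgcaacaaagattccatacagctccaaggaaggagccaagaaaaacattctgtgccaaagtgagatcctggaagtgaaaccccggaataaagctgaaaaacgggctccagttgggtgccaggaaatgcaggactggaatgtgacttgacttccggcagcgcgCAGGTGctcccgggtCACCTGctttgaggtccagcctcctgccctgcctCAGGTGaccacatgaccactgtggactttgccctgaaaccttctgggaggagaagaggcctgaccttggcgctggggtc
RAB4A promoter: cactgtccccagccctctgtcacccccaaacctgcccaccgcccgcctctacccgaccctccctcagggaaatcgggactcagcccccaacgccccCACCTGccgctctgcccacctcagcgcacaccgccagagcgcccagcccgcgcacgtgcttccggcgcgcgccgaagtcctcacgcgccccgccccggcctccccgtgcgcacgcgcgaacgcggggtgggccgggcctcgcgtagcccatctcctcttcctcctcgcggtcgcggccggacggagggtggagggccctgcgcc
RAB25 promoter: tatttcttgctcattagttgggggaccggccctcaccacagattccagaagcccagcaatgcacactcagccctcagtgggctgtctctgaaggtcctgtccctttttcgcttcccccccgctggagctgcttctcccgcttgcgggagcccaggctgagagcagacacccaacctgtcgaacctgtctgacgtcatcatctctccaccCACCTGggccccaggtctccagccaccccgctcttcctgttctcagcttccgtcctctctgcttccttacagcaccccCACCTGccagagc

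The deposited values are log2 expression, centred so that the middle of the 9 arrays is 0 for every probe set. The base of the logarithm is not stated and was taken as 2, the usual base of such tables, so every fold below rests on that base. A value of 0.30 thus lies 0.30 above that median, and no level can be read from it. A coarse level class was recovered from the stored digits: in log2 units, 42 of the 66 genes were bright (8 or more), 23 were of middle level (4 to 8) and RAB39B was below 4. Detection above background cannot be read from a class. Between replicates the SD of differences over all genes was 0.112 to 0.149. The cell type markers of the line were mixed: 3 of 5 epithelial markers, 4 of 4 mesenchymal markers and 2 of 5 endometrial and Mullerian markers had a class of 8 or more, while 3 of 3 leukocyte markers and 2 of 3 endothelial markers lay from 4 to 8 and the third endothelial marker below 4. In such bulk RNA, fewer cells of a type and less RNA per cell cannot be told apart.

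Relative to scrambled controls, 8 of the 66 genes rose in mimic cells (7.56% of all genes rose) and 8 fell (6.95% of all genes fell), and 50 did not pass the test (limma, Benjamini-Hochberg adjusted p under 0.05 over all 19775 genes). Those 16 are 24.2% of the set, against 14.5% of all genes, and the share depended on level: of the 42 bright RAB and ARL genes 13 were called (31.0%), against 22.3% of the 9126 bright genes. The median log2 change was -0.018 over the set and -0.01 over all genes. The 3 mimic arrays did not overlap the 3 scrambled arrays in any of the 16, and for 28 of the 66 genes in all, against 29.7% of all genes. Of the set, ARL14 alone passed a fold of 1.5, which 1.48% of all genes passed with a call. The count of genes of the set that fell was 5 without mimic replicate 2 and 5 without scrambled replicate 2. Of all 19775 genes 1033 and 989 fell under these settings, against 1375 with every array. With the mean of all probe sets as the gene value, 5 rose and 4 fell. Of all 19775 genes 1354 rose and 1146 fell under that setting, so the set's share then lay close to that of all genes.

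**Figure D1:**
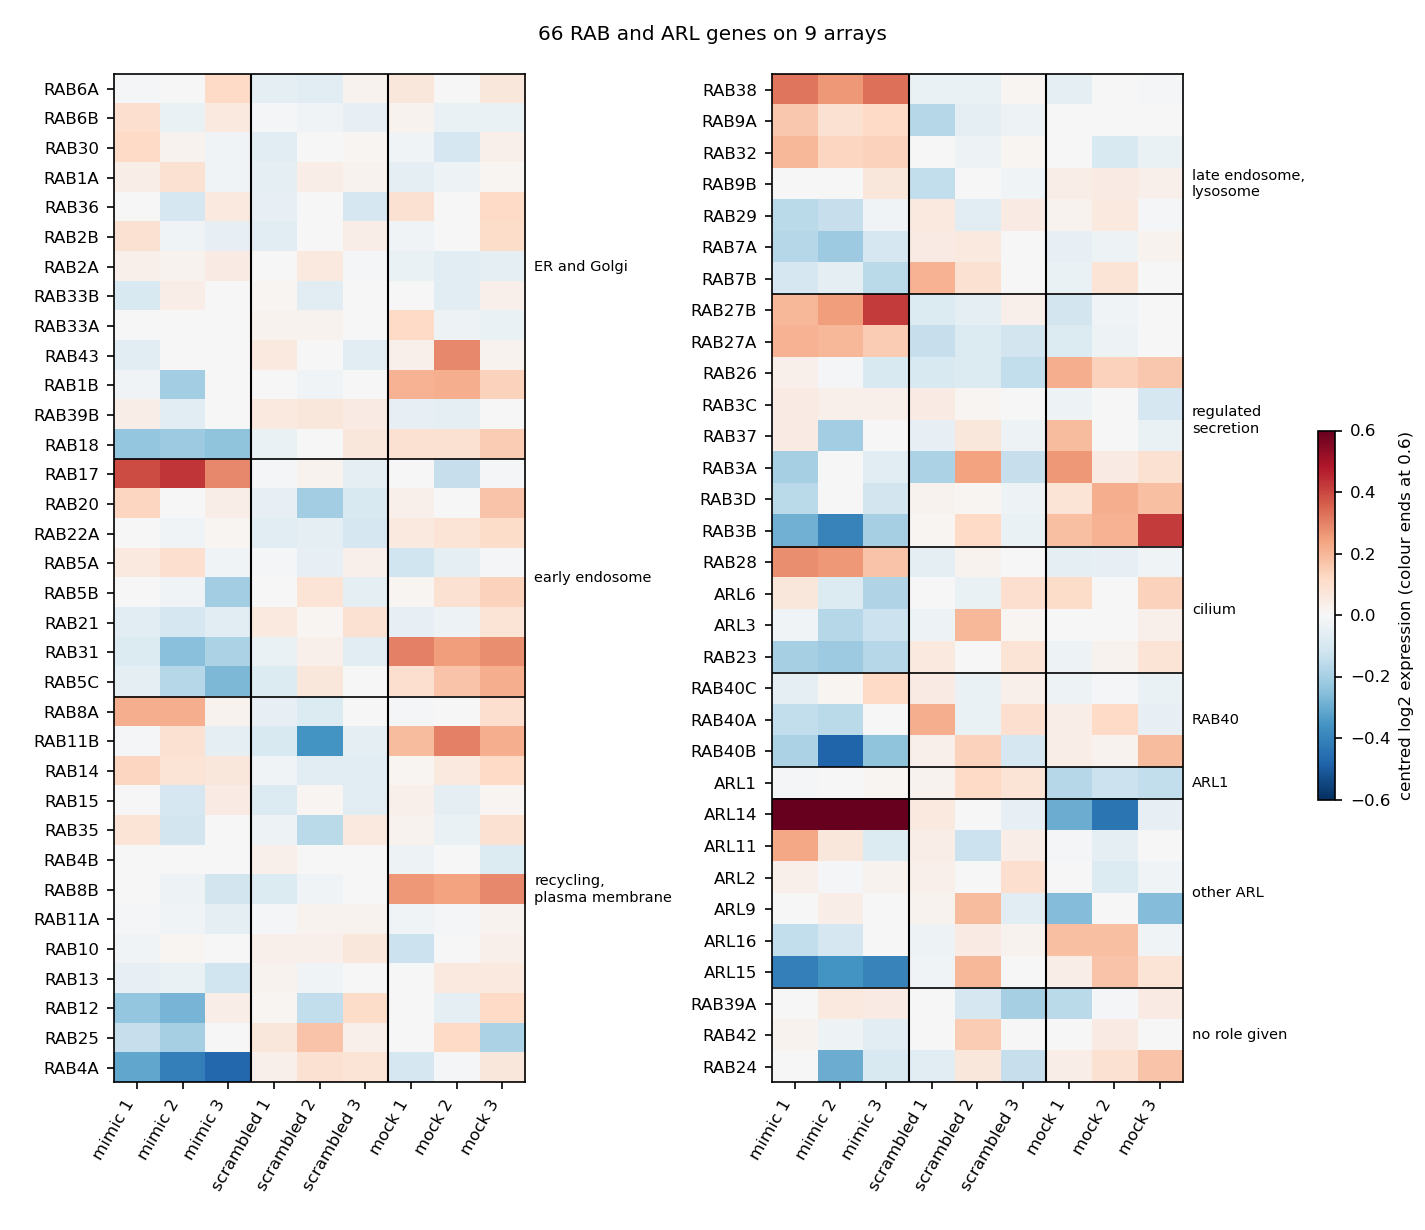
Heat map of centred log2 expression (colour) of the 66 RAB and ARL genes (rows, grouped by role and ordered by change) on 9 arrays (columns: mimic, scrambled control, mock). The ARL14 row stands out, with 1.55 to 1.73 on the mimic arrays, beyond the end of the colour scale at 0.6; most rows show no block of colour.

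ARL14, an ARF-like GTPase that in human dendritic cells controls the movement of MHC class II vesicles along actin, had the largest change of the set. Its values were 1.73, 1.55 and 1.57 on mimic arrays, 0.06, 0.00 and -0.05 on scrambled arrays, and -0.30, -0.44 and -0.05 on mock arrays. All mimic arrays lay far above all other arrays. ARL14 was 3.06-fold higher in mimic than in scrambled cells (log2 change 1.61, SE 0.09, 95% interval 1.42 to 1.81, adjusted p = 1.01e-06) and 3.67-fold higher than in mock cells (log2 change 1.88, adjusted p = 5.7e-07). It rests on 1 probe set with a level of 4 to 8.

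Its relative ARL15, a less studied ARF-like GTPase, went the other way. ARL15 read -0.41, -0.36 and -0.40 on mimic arrays, -0.02, 0.20 and 0.00 on scrambled arrays and 0.04, 0.17 and 0.08 on mock arrays. Mimic arrays lay below both controls without overlap. The log2 change was -0.45 against scrambled (SE 0.06, adjusted p = 0.000642) and -0.48 against mock (adjusted p = 0.000379). The other ARL genes not grouped here with the cilium or Golgi, ARL2, ARL9, ARL11 and ARL16, did not pass the test in either comparison. Among them ARL2, a regulator of tubulin folding and of lipid-modified cargo, changed by -0.03 against scrambled (95% interval -0.13 to 0.07).

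At the early endosome, 1 of 8 measured genes rose with the mimic and none fell (12.5% called, against 14.5% of all genes). RAB17, a RAB of polarised epithelial cells that acts in transcytosis and recycling, read 0.39, 0.43 and 0.29 on mimic arrays, against -0.01, 0.02 and -0.06 on scrambled arrays and 0.00, -0.14 and -0.01 on mock arrays. Every mimic array was above every control array. The log2 change was 0.38 (SE 0.06, 1.30-fold, adjusted p = 0.000873) against scrambled and 0.42 (adjusted p = 0.000473) against mock. RAB5A, which directs fusion of early endosomes, changed by 0.06 (95% interval -0.05 to 0.17) against scrambled.

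Late endosomes, lysosomes and the pigment granules related to them were served by 7 genes. Of these 3 rose and 2 fell (71.4% called, against 14.5% of all genes). All of the 7 but RAB9B were bright, and 22.3% of bright genes were called. With the mean of all probe sets RAB7A, RAB7B and RAB32 were no longer called. Against mock 2 of the 7 were called (28.6%, against 18.5% of all genes), and none was called between scrambled and mock cells. RAB38, which with RAB32 delivers enzymes to melanosomes in pigment cells, read 0.32, 0.26 and 0.33 on mimic arrays, -0.04, -0.04 and 0.01 on scrambled arrays, and -0.06, 0.00 and -0.01 on mock arrays. Its mimic arrays lay close together and above all controls. RAB38 rose by 0.33 against scrambled (SE 0.04, adjusted p = 0.000492) and by 0.33 against mock (adjusted p = 0.000461). RAB32 itself read 0.20, 0.13 and 0.14 on mimic arrays, 0.00, -0.03 and 0.01 on scrambled arrays, and 0.00, -0.09 and -0.04 on mock arrays, a rise of 0.16 against scrambled (SE 0.04, adjusted p = 0.033). Its mimic arrays lay above both controls. The call against scrambled was lost under 8 of 15 alternatives, among them without mimic replicate 1 or 3 and whichever scrambled array was left out (adjusted p between 0.0676 and 0.0959). Against mock RAB32 rose by 0.20 (adjusted p = 0.0103), or with an adjusted p of 0.0519 without mock replicate 2. RAB9A, which carries cargo from late endosomes to the trans-Golgi network, read 0.16, 0.09 and 0.12 on mimic arrays, -0.17, -0.06 and -0.03 on scrambled arrays and 0.00 on all 3 mock arrays. The mock arrays lay between the other groups. Their 3 values were exactly 0, for a reason that is unknown, and RAB9A rests on 1 probe set. RAB9A rose by 0.21 against scrambled (SE 0.05, adjusted p = 0.0144) and was not called against mock (0.12, adjusted p = 0.107). Without scrambled replicate 1 its adjusted p against scrambled was 0.0562.

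The 2 genes of this group that fell were RAB7A, which drives late endosomes to fuse with lysosomes, and RAB7B, which acts between late endosomes and the Golgi. RAB7A read -0.17, -0.22 and -0.10 on mimic arrays, 0.05, 0.06 and 0.00 on scrambled arrays and -0.05, -0.03 and 0.02 on mock arrays. Mimic arrays lay below both controls, which overlapped each other. The fall of 0.20 against scrambled (SE 0.05, adjusted p = 0.0143) came from 1 of 7 probe sets, which fell by 0.36, while the other 6 changed by -0.08 to 0.01. Averaged over every probe set RAB7A changed by -0.08 (adjusted p = 0.278), and without scrambled replicate 2 the adjusted p was 0.0511. RAB7B read -0.10, -0.06 and -0.16 on mimic arrays, 0.21, 0.09 and 0.00 on scrambled arrays and -0.04, 0.08 and 0.00 on mock arrays. The mimic arrays of RAB7B lay lowest, just below the mock arrays. Its change of -0.21 against scrambled (SE 0.06, adjusted p = 0.0406) was lost under 10 of 15 alternatives, among them whichever mimic array was left out, without scrambled replicate 1 or 2 and without mock replicate 1 or 3 (adjusted p between 0.0505 and 0.141). Its other probe set changed by 0.07, and the mean of both changed by -0.07 (adjusted p = 0.444).

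**Figure D2:**
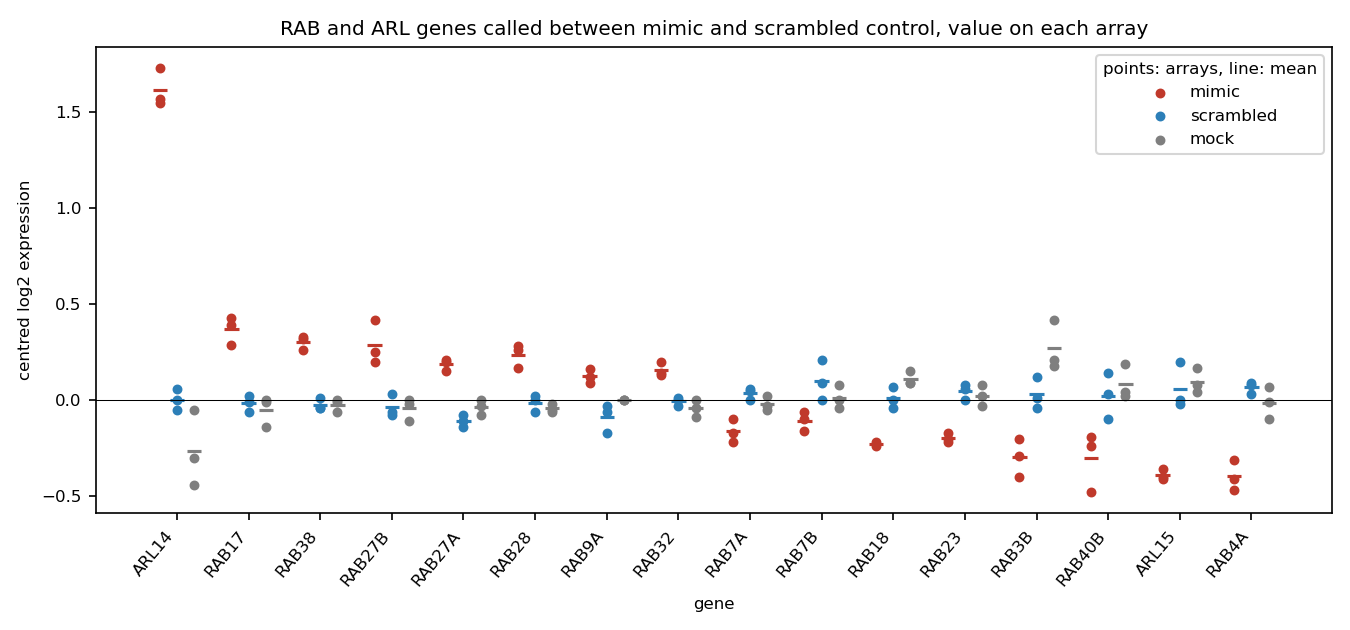
Centred log2 expression (vertical axis) of the 16 RAB and ARL genes called between mimic and scrambled cells (horizontal axis, ordered by change), with 1 point per array and a line at each group mean for mimic, scrambled control and mock. Mimic points of ARL14 sit at 1.55 to 1.73, and those of RAB4A at -0.47 to -0.31, apart from both controls.

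Among 8 genes of regulated secretion, 2 rose and 1 fell (37.5% called, against 14.5% of all genes). RAB27A and RAB27B dock secretory granules, melanosomes and exosome-bearing endosomes at the plasma membrane. RAB27A read 0.21, 0.20 and 0.15 on mimic arrays, -0.14, -0.08 and -0.11 on scrambled arrays, and -0.08, -0.03 and 0.00 on mock arrays. Mimic arrays were above all controls. The rise was 0.30 against scrambled (SE 0.04, 1.23-fold, adjusted p = 0.00106) and 0.23 against mock (adjusted p = 0.00503). Against scrambled all 5 of its probe sets were called higher, by 0.23 to 0.43. No other called gene with several probe sets had every one called in that comparison. Against mock 2 of the 5 were called, with changes of 0.09 to 0.25 over the 5. The 2 that rose most against scrambled, by 0.41 and 0.43, were also called lower in scrambled than in mock cells (-0.24 and -0.34). RAB27B read 0.20, 0.25 and 0.42 on mimic arrays, -0.08, -0.06 and 0.03 on scrambled arrays, and -0.11, -0.02 and 0.00 on mock arrays. Its rise of 0.33 (SE 0.06, adjusted p = 0.00546) came from the probe set at a level of 8 or more. The 2 dimmer probe sets changed by -0.05 and 0.06, and the mean of all 3 changed by 0.11 (adjusted p = 0.355). Against mock RAB27B rose by 0.34 (adjusted p = 0.00397), and the mean of all 3 changed by 0.17 (adjusted p = 0.133).

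RAB3B, a RAB of synaptic and hormone vesicles that docks them for exocytosis, fell. It read -0.29, -0.40 and -0.20 on mimic arrays, 0.01, 0.12 and -0.04 on scrambled arrays and 0.18, 0.21 and 0.42 on mock arrays. The groups stood in 3 separate bands with mimic lowest and mock highest. The change was -0.33 against scrambled (SE 0.08, adjusted p = 0.0136) and -0.57 against mock (SE 0.08, 1.48-fold lower, adjusted p = 0.000456). The adjusted p against scrambled was 0.0526 without mimic replicate 2 and 0.0575 without scrambled replicate 2, and the mean of all 5 probe sets changed by -0.17 (adjusted p = 0.108). RAB26, which acts on secretory granules, and RAB3D, found on exocrine granules, did not pass the test against scrambled (0.09 and -0.09).

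For recycling to and delivery at the plasma membrane, 1 of 13 genes fell and none rose (7.69% called, against 14.5% of all genes). RAB4A, which returns receptors quickly from early endosomes to the surface, read -0.31, -0.41 and -0.47 on mimic arrays, 0.03, 0.09 and 0.08 on scrambled arrays and -0.10, -0.01 and 0.07 on mock arrays. All mimic arrays lay below all controls. Its fall of 0.46 (SE 0.06, 1.38-fold, adjusted p = 0.000306) against scrambled was the largest fall in the set, and the change against mock was -0.38 (adjusted p = 0.00104). Its 3 probe sets, all at a level of 8 or more, changed by -0.20, -0.30 and -0.88, and 2 of the 3 were called. RAB11A, which marks the recycling endosome, read -0.01, -0.02 and -0.06 on mimic arrays, -0.01, 0.02 and 0.02 on scrambled arrays and -0.02, -0.01 and 0.02 on mock arrays. Its groups overlapped, and the change against scrambled was -0.04 (95% interval -0.13 to 0.05). Its epithelial relative RAB25, which supports apical recycling, read -0.14, -0.20 and 0.00 on mimic arrays, 0.07, 0.17 and 0.03 on scrambled arrays and 0.00, 0.12 and -0.19 on mock arrays. Mimic and mock arrays of RAB25 overlapped, and the change against scrambled was -0.21 (95% interval -0.38 to -0.03, adjusted p = 0.125), which did not pass over all genes.

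Of 13 genes acting at the endoplasmic reticulum and Golgi, 1 fell and none rose (7.69% called, against 14.5% of all genes). RAB18, which works at the endoplasmic reticulum and lipid droplets, read -0.23, -0.22 and -0.24 on mimic arrays, -0.04, 0.00 and 0.07 on scrambled arrays, and 0.09, 0.09 and 0.15 on mock arrays. Mimic arrays lay lowest and mock arrays highest, without overlap. The change was -0.24 against scrambled (SE 0.05, adjusted p = 0.00493) and -0.34 against mock (adjusted p = 0.000502). Of its 6 probe sets 2 were called lower, and the mean of all 6 changed by -0.18 (adjusted p = 0.0517) against scrambled and by -0.17 (adjusted p = 0.0489) against mock. RAB1A, required for transport to the Golgi, changed by 0.04 against scrambled (95% interval -0.07 to 0.14), and RAB6A, which acts in retrograde Golgi traffic, by 0.07 (95% interval -0.04 to 0.19). The value of RAB6A rests on 1 probe set with a level of 4 to 8.

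The 4 genes linked to the cilium split, with 1 higher and 1 lower (50% called, against 14.5% of all genes). Against mock the share called was also 50%, against 18.5% of all genes. RAB28, mutated in an inherited cone-rod dystrophy, read 0.28, 0.26 and 0.17 on mimic arrays, -0.06, 0.02 and 0.00 on scrambled arrays and -0.06, -0.05 and -0.02 on mock arrays. Mimic arrays were above all controls, with a rise of 0.25 against scrambled (SE 0.05, adjusted p = 0.0043). Only 1 of its 5 probe sets was called, the one at a level of 8 or more, and the mean of all 5 changed by 0.10 (adjusted p = 0.196). Against mock the rise was 0.28 (adjusted p = 0.00184), and the mean of all 5 changed by 0.08 (adjusted p = 0.238). RAB23, a brake on Hedgehog signalling in mouse, read -0.20, -0.22 and -0.17 on mimic arrays, 0.06, 0.00 and 0.08 on scrambled arrays and -0.03, 0.02 and 0.08 on mock arrays. All mimic arrays were below all controls. RAB23 fell by 0.24 against scrambled (SE 0.05, adjusted p = 0.00451), with 2 of 3 probe sets called, and its change against mock was -0.22 (adjusted p = 0.00635). ARL3, which releases lipid-modified cargo inside cilia, changed by -0.17 against scrambled (95% interval -0.31 to -0.02, adjusted p = 0.127).

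RAB40B belongs to a group of RABs with a SOCS box, which act as adaptors of a ubiquitin ligase. RAB40B fell and was the 1 of 3 such genes called (33.3%, against 14.5% of all genes). It read -0.19, -0.48 and -0.24 on mimic arrays, 0.03, 0.14 and -0.10 on scrambled arrays and 0.04, 0.02 and 0.19 on mock arrays. Mimic replicate 2 was the lowest of the 9 arrays. The change against scrambled was -0.33 (SE 0.09, adjusted p = 0.0279), and the adjusted p was 0.0843 without mimic replicate 2, 0.0778 without scrambled replicate 1 and 0.106 without scrambled replicate 2. The change against mock was -0.39 (adjusted p = 0.0101). Of the 3 probe sets of RAB40B only 1 was called, with changes of -0.52 against scrambled and -0.71 against mock. The others changed by -0.14 and -0.17 against scrambled and by -0.07 and -0.18 against mock.

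**Figure D3:**
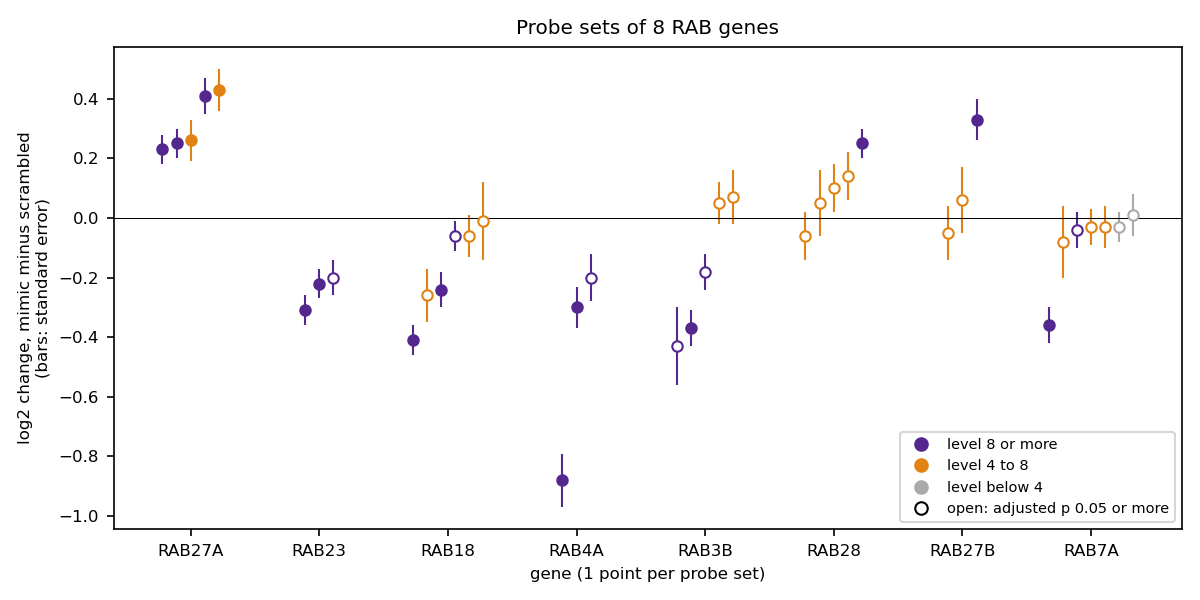
Log2 change between mimic and scrambled cells (vertical axis, bars show the standard error) of each probe set of 8 RAB genes (horizontal axis), coloured by level class, with filled points for an adjusted p under 0.05 over all probe sets. RAB27A has 5 filled points at 0.23 to 0.43, while RAB7A has 1 filled point at -0.36 and 6 open points near 0.

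Of the genes nearest the threshold in this comparison, the last inside it were RAB7A, RAB9A, RAB40B, RAB32 and RAB7B, with adjusted p from 0.0143 to 0.0406. The first outside were RAB8A (log2 change 0.20, adjusted p = 0.0552), which delivers vesicles to the surface and cilium, RAB14 (0.15, adjusted p = 0.0556), RAB20 (0.17, adjusted p = 0.0944), RAB31 (-0.15, adjusted p = 0.098) and RAB21 (-0.13, adjusted p = 0.0986). Over all 50 genes that did not pass, the 95% intervals lay within -0.38 to 0.35. An unadjusted p under 0.05 was found for 27 of the 66 genes, against 5262 of all 19775 genes. Among bright genes it was found for 21 of the 42 in the set, against 3381 of all 9126.

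Against mock, 8 RAB and ARL genes rose in mimic cells, where 8.32% of all genes rose, and 12 fell, where 10.2% of all genes fell. The 20 called are 30.3% of the set, against 18.5% of all genes, and the 15 called among its 42 bright genes are 35.7%, against 27.6% of bright genes. Mimic and mock arrays did not overlap for 35 of the 66, against 34.5% of all genes. The median change was -0.03 over the set and 0.012 over all genes. This comparison shares the mimic arrays with the one above. Several of its genes also differed between the 2 controls. Scrambled cells had 1 gene of the set higher than mock cells, against 2.65% of all genes, and 5 lower, against 5.15%. The count of higher genes of the set was 2 without mock replicate 2 and 2 without mock replicate 3. Of all 19775 genes 214 and 371 were higher under these settings, against 525 with every array. The 6 genes called with every array are 9.09% of the set (7.81% of all genes), and 4 lie among the 42 bright genes (9.52%, against 12.8% of bright genes). Scrambled and mock arrays did not overlap for 19 of the 66, against 30.1% of all genes. The 3' to 5' difference of the ACTB control probe sets, a sign of RNA or labelling quality, was 0.016 ± 0.084 on mimic arrays, 0.099 ± 0.036 on scrambled arrays and -0.176 ± 0.027 on mock arrays (log2, SD, n = 3 each). That of GAPDH was -0.015 ± 0.035 on mimic arrays, 0.007 ± 0.023 on scrambled arrays and 0.027 ± 0.035 on mock arrays. The part of these differences in the comparisons with mock was not tested.

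RAB31, which acts between the trans-Golgi network and endosomes, read -0.08, -0.25 and -0.19 on mimic arrays, -0.04, 0.03 and -0.07 on scrambled arrays and 0.30, 0.25 and 0.28 on mock arrays. Mock arrays lay above all 6 transfected arrays. RAB31 fell by 0.45 in mimic cells (SE 0.05, adjusted p = 0.0002) and by 0.30 in scrambled cells (SE 0.05, adjusted p = 0.00777) relative to mock. RAB8B, a relative of RAB8A in vesicle delivery, read 0.00, -0.03 and -0.11 on mimic arrays, -0.08, -0.02 and 0.00 on scrambled arrays and 0.26, 0.24 and 0.29 on mock arrays. Mimic and scrambled arrays overlapped and both lay below mock, with changes of -0.31 (adjusted p = 0.00111) and -0.29 (adjusted p = 0.00537), while mimic and scrambled cells differed by -0.01 (95% interval -0.12 to 0.09). RAB26 showed a like order, with changes of -0.19 in mimic cells (adjusted p = 0.0172) and -0.28 in scrambled cells (adjusted p = 0.00733) relative to mock. Without mimic replicate 3 and without mock replicate 1 the adjusted p of RAB26 in mimic cells was 0.0718 and 0.0678.

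ARL1, which recruits golgins to the trans-Golgi, went up in both transfected groups. It read -0.01, 0.00 and 0.01 on mimic arrays, 0.02, 0.12 and 0.08 on scrambled arrays, and -0.17, -0.13 and -0.15 on mock arrays. Mock arrays lay below all 6 others. The change relative to mock was 0.15 in mimic cells (SE 0.04, adjusted p = 0.0305) and 0.22 in scrambled cells (SE 0.04, adjusted p = 0.0116). In mimic cells this call was lost whichever mimic or mock array was left out (adjusted p between 0.0536 and 0.0949).

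Another 3 genes fell in mimic cells relative to mock and did not pass in mimic against scrambled or in scrambled against mock. RAB5C, which acts with RAB5A on early endosomes, read -0.06, -0.17 and -0.27 on mimic arrays, -0.08, 0.07 and 0.00 on scrambled arrays, and 0.10, 0.17 and 0.22 on mock arrays, a change of -0.33 (SE 0.06, adjusted p = 0.00429). RAB1B, which acts with RAB1A before the Golgi, changed by -0.27 (SE 0.06, adjusted p = 0.00845), and RAB3D changed by -0.25 (SE 0.06, adjusted p = 0.00926). Their scrambled means lay between those of mimic and mock cells. In mimic against scrambled cells RAB5C changed by -0.16, RAB1B by -0.07 and RAB3D by -0.09.

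In scrambled cells RAB11B, a RAB of the recycling endosome, and RAB22A, an early endosome RAB, were also lower than in mock cells. RAB11B read -0.09, -0.36 and -0.06 on scrambled arrays and 0.19, 0.30 and 0.22 on mock arrays, a change of -0.40 (SE 0.08, adjusted p = 0.012), while mimic arrays lay between, at -0.01, 0.09 and -0.06. Scrambled replicate 2 was the lowest of these, and the 2 probe sets of RAB11B changed by -0.13 and -0.68. RAB22A changed by -0.16 (SE 0.04, adjusted p = 0.0381) with no probe set called on its own, and its call was lost under 9 of 15 alternatives, among them whichever scrambled or mock array was left out and without mimic replicate 3 (adjusted p between 0.0583 and 0.118).

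**Figure D4:**
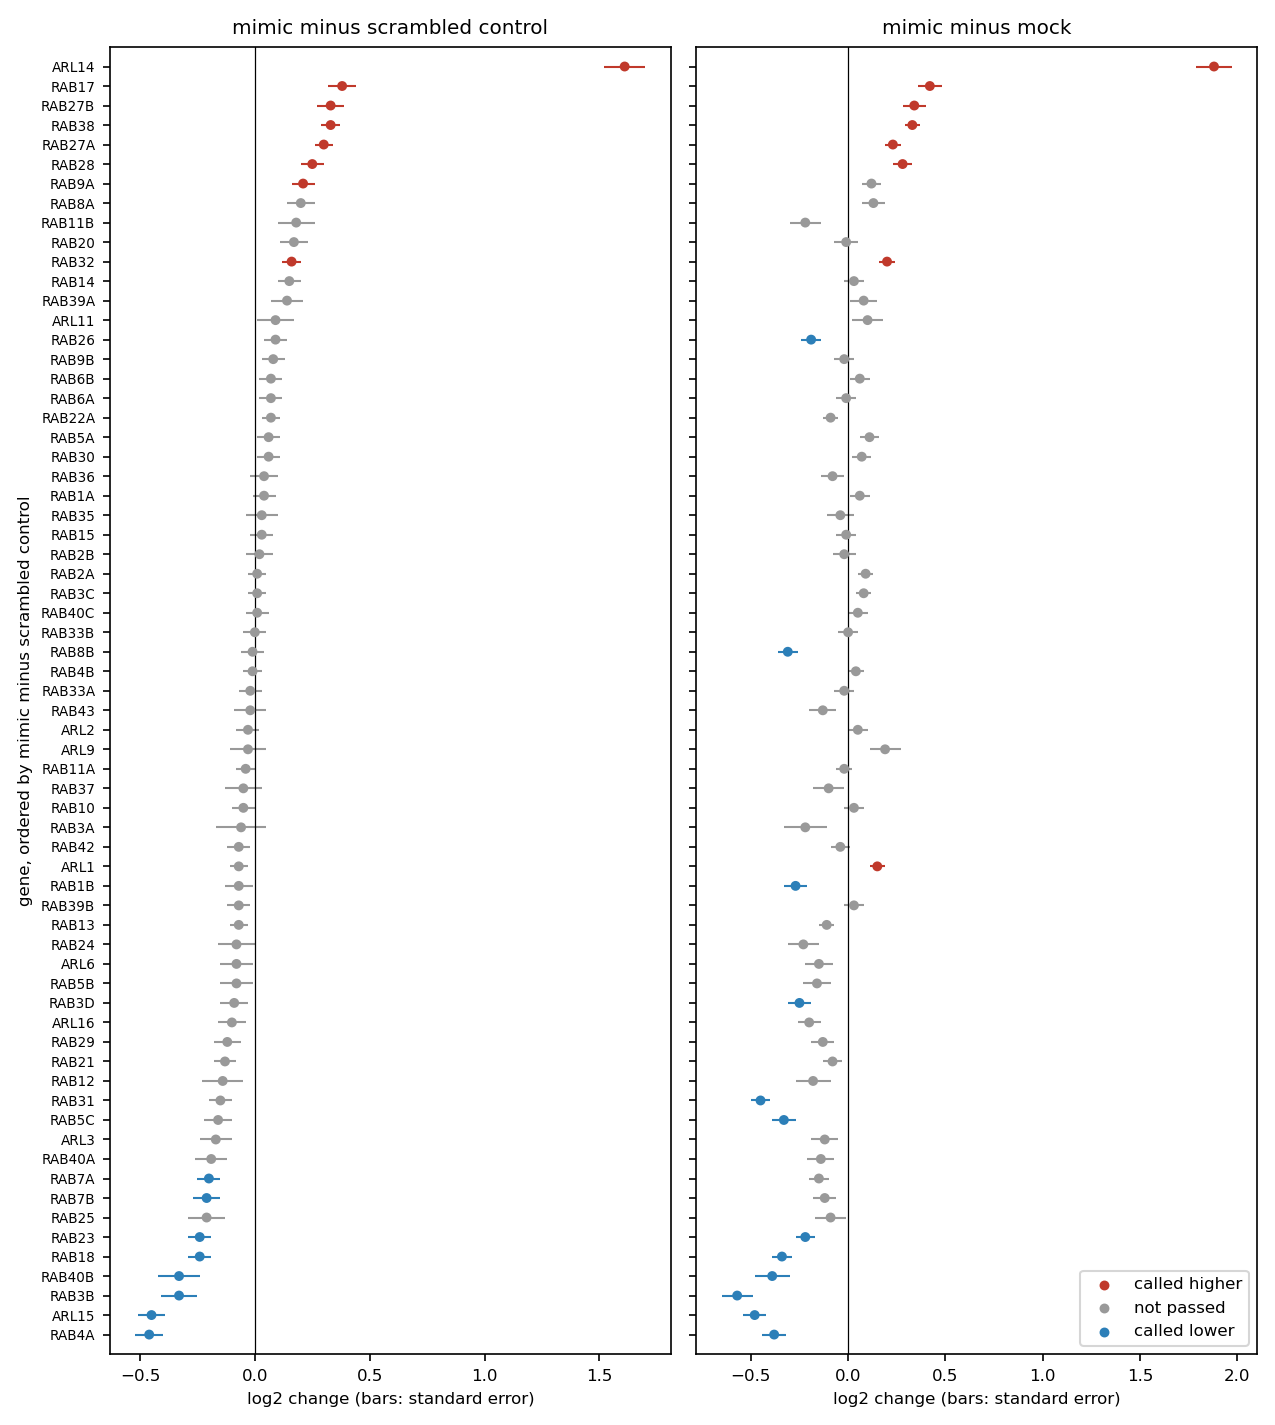
Log2 change with its standard error (horizontal axis) of the 66 RAB and ARL genes (vertical axis, ordered by mimic minus scrambled control) for mimic minus scrambled control (left) and mimic minus mock (right), coloured by call. ARL14 lies at 1.61 and 1.88, and every other gene lies between -0.57 and 0.42; both panels use the same mimic arrays.

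The proteins that load, switch off and read these GTPases were followed in 7 lists. The lists were chosen with earlier results of these data known, so their shares are no independent test. These shares were also not matched for level. Of 70 RAB effectors measured, 8 rose and 10 fell in mimic relative to scrambled cells (25.7% called, against 14.5% of all genes; median change -0.034). Against mock 30 were called (42.9%, against 18.5% of all genes), 11 higher and 19 lower in mimic cells, and between scrambled and mock cells 14 were called (20%, against 7.81% of all genes). The 4 with the smallest p are described here. RAB11FIP1, a RAB11 adaptor that returns receptors and integrins to the surface, read 0.45, 0.27 and 0.41 on mimic arrays, -0.67, -0.66 and -0.77 on scrambled arrays and 0.00, -0.06 and 0.02 on mock arrays. The groups stood in 3 separate bands, with scrambled arrays lowest. It changed by 1.08 (SE 0.06, adjusted p = 1.01e-06) in mimic against scrambled, by 0.39 (adjusted p = 0.000982) in mimic against mock and by -0.69 (adjusted p = 0.000275) in scrambled against mock. RAB11FIP2, an adaptor that links RAB11 to MYO5B, read -0.62, -0.57 and -0.63 on mimic arrays, 0.09, -0.02 and 0.05 on scrambled arrays and 0.07, 0.04 and 0.04 on mock arrays. Its controls overlapped and its mimic arrays lay apart, with a change of -0.65 (SE 0.05, adjusted p = 6.45e-06) against scrambled and of -0.66 against mock.

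MYO5C, a class V myosin of secretory epithelia, read 0.64, 0.58 and 0.55 on mimic arrays, -0.04, 0.00 and 0.00 on scrambled arrays and -0.25, -0.18 and -0.15 on mock arrays. It rose by 0.60 (SE 0.05, adjusted p = 1.26e-05) against scrambled and by 0.78 against mock. EXPH5, an effector of RAB27, read 0.61, 0.62 and 0.71 on mimic arrays, -0.27, -0.06 and -0.13 on scrambled arrays and -0.10, 0.00 and 0.05 on mock arrays. All mimic arrays lay above all controls for both genes. EXPH5 rose by 0.80 (SE 0.06, adjusted p = 1.4e-05) against scrambled, and by 0.47 with the mean of all its probe sets. Other RAB27 effectors on the list were chosen after their values were seen. Against scrambled, SYTL2 fell by 0.24 (adjusted p = 0.00523), RPH3AL fell by 0.42 (adjusted p = 0.00181) and MLPH, which links RAB27A to a myosin in pigment cells, changed by -0.14 (adjusted p = 0.111). MYRIP, SYTL1, SYTL3, SYTL4, SYTL5 and UNC13D did not pass the test.

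Of 54 exchange factors, 4 rose and 9 fell in mimic relative to scrambled cells (24.1% called, against 14.5% of all genes; median change -0.029). Against mock 8 were called (14.8%, against 18.5% of all genes). DENND5A, a DENN domain protein that binds RAB6, read -0.55, -0.65 and -0.63 on mimic arrays, 0.13, -0.03 and 0.06 on scrambled arrays and 0.02, 0.00 and 0.04 on mock arrays. Its mimic arrays lay far below both controls, with a change of -0.66 (SE 0.05, adjusted p = 1.2e-05) against scrambled. SBF1, a DENN domain relative of the myotubularin phosphatases, changed by -0.69 (SE 0.06, adjusted p = 3.71e-05), or by -0.31 with the mean of all its probe sets. GAPVD1, which activates RAB5, rose by 0.31 (SE 0.05, adjusted p = 0.000955). TRAPPC10, a TRAPP subunit, rose by 0.36 (SE 0.06, adjusted p = 0.002), a call lost with the mean of all its probe sets (0.11, adjusted p = 0.225).

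Of 41 GTPase-activating genes, 6 rose and 4 fell (24.4% called, against 14.5% of all genes; median change -0.006), and 10 were called against mock (24.4%, against 18.5%). TBC1D12, which has a TBC domain, rose by 0.54 (SE 0.06, adjusted p = 0.000176) against scrambled and by 0.55 against mock. EVI5, a TBC protein linked to RAB11, changed by -0.56 (SE 0.06, adjusted p = 0.000184), TBC1D9 by 0.41 (adjusted p = 0.000628) and TBC1D1, which regulates glucose transporter traffic, by 0.36 (adjusted p = 0.00348). Averaged over every probe set these last 3 changed by -0.16, 0.17 and 0.17 and were no longer called (adjusted p 0.085, 0.0506 and 0.0529).

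Among 40 partners of ARL proteins, 1 rose and 6 fell (17.5% called, against 14.5% of all genes; median change -0.038), and 10 were called against mock (25%, against 18.5%). ARL2BP, which binds ARL2 and ARL3, changed by -0.56 (SE 0.06, adjusted p = 6.77e-05), and PDE6D, a carrier of prenylated cargo that ARL3 unloads, by -0.33 (adjusted p = 0.00144). Averaged over every probe set they changed by -0.34 and -0.21. RP2, the GTPase-activating protein of ARL3, rose by 0.37 (adjusted p = 0.00141) against scrambled and read 0.18 (adjusted p = 0.0503) against mock. ELMOD2, a GTPase-activating protein of ARL2, changed by -0.31 (adjusted p = 0.000944), and the mean of all its probe sets changed by 0.00 (adjusted p = 1.0).

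Of 16 genes for RAB chaperones and prenylation, 1 rose and none fell (6.25% called, against 14.5% of all genes). This was RABIF, a chaperone of RABs without nucleotide, with a change of 0.17 (SE 0.05, adjusted p = 0.0315) that was lost under 7 of 15 alternatives, among them without mimic replicate 1 or 2 and whichever scrambled array was left out (adjusted p between 0.0509 and 0.0933). Averaged over every probe set RABIF changed by 0.11 (adjusted p = 0.153). RABGGTB, a subunit of the prenylating enzyme, read -0.16 (adjusted p = 0.0751). Of 7 ARF and SAR1 GTPases, 1 was called against scrambled (14.3%, against 14.5% of all genes). This was SAR1B, which starts COPII coat assembly, with a rise of 0.20 (SE 0.04, adjusted p = 0.00902) against scrambled and a difference of 0.00 against mock. None of 4 RAB-like GTPases outside the naming rule passed against scrambled, where 14.5% of all genes were called. Their changes in that comparison ran from -0.16 for RABL3 to 0.06 for IFT22. Against mock 2 of the 4 were called (50%, against 18.5% of all genes).

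**Figure D5:**
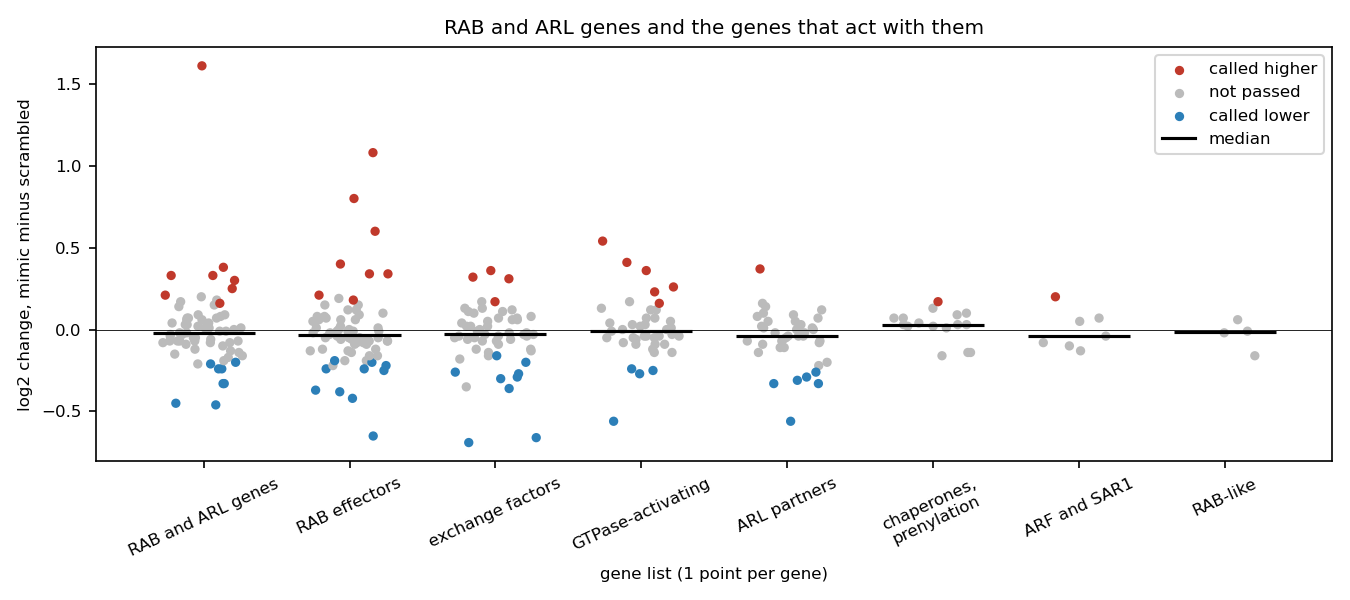
Log2 change between mimic and scrambled cells (vertical axis) of the 66 RAB and ARL genes and of 7 lists of genes that act with them (horizontal axis), with 1 point per gene, coloured by call, and a line at each median. Medians run from -0.038 for ARL partners to 0.031 for chaperones and prenylation, and points lie on both sides of 0 in each list.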

How the data were processed

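Total RNA was measured on 9 one-colour Affymetrix arrays. The authors deposited 1 table of log2 values, 54675 probe sets by 9 arrays, median-centred per probe set; its normalization, the base of its logarithm (taken as 2) and its genome build are not given in the sources used here. Of the probe sets, 48.89% held more than 1 exact 0, and the rounding of stored numbers gave each a level class (98.0% of 6000 simulated classes were recovered). Signal over background is unknown, and the number of arrays limits precision.

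Probe sets with 1 symbol in the platform's 2016 annotation (41091; 1801 had several and 11721 none) were used; 11 probe sets with several symbols that name a RAB or ARL gene were left out. All 66 identifiers matched RefSeq. A gene's value was the mean of its probe sets in the highest level class (154 probe sets for the 66 genes). A group-means model over all 9 arrays (limma 3.58.1, R 4.3.3, two-sided) shared 1 spread, and a Benjamini-Hochberg adjusted p under 0.05 over 19775 genes was a call. Standard errors are those of log2 changes, with a median of 0.0592. Tested on simulated data of the mimic and scrambled contrast, 44% of genes changed by 0.25, 89.3% by 0.5 and 98.7% by 1 were recovered. Of 530 simulated calls 32 (6%) were false. A far smaller share of genes was changed in the simulation than the 14.5% called in the data. Its adjusted p was therefore stricter, and recovery in the data was not measured.

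The members and lists were chosen with earlier results of these data known. Named by rule were up to 12 called members per direction and comparison and 5 members on each side of the threshold. The 4 genes of smallest p in each list were also named. RAB25 and the other RAB27 effectors were chosen after their values were seen. Further uncalled members, among them RAB5A, RAB11A, RAB1A, RAB6A, ARL2 and ARL3, fell outside these rules and were not picked by a rule. The 15 alternatives were the replicate number as a block, quantile normalization, the mean of all probe sets, a level of 4 or more, 2 groups only, robust variance and leaving out each array. Replicate numbers did not pair the arrays (correlations -0.155 to 0.117).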

Additional observations from a re-analysis of the deposited data

How the results depend on the processing

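With the mean of all probe sets as the gene value, 5 members rose and 4 fell in mimic against scrambled cells. With the brightest probe sets 8 rose and 8 fell. Of all 19775 genes 1354 rose and 1146 fell with the mean of all probe sets, against 1495 and 1375 with the brightest. Leaving out 1 array gave 6 to 8 members higher and 5 to 8 lower there. It gave 7 to 8 higher and 11 to 14 lower in mimic against mock, and 1 to 2 higher and 4 to 6 lower in scrambled against mock. The count of 2 came without mock replicate 2 and without mock replicate 3. Over all genes these settings gave 1152 to 1432 higher and 989 to 1313 lower in mimic against scrambled. They gave 1150 to 1590 and 1456 to 2068 in mimic against mock, and 202 to 536 and 541 to 1079 in scrambled against mock. With the replicate number as a block, 7 members rose and 8 fell in mimic against scrambled, 7 and 12 in mimic against mock, and 1 and 4 in scrambled against mock. Of all 19775 genes 1352 rose and 1211 fell, 1480 and 1821, and 367 and 819 with that block, in the same order. Of 9 arrays 3 correlated best with their own number. Calls held under all 15 alternatives for 7 of 16 members against scrambled, 15 of 20 in mimic against mock, 5 of 6 in scrambled against mock, and 14 of 20 other named genes. Under quantile normalization ARL14 changed by 1.21 against scrambled. No called value reversed. Of 630 list counts under alternatives, 496 stayed within 1.5 times, 120 were lower and 14 higher. In the simulation 44% of changes of 0.25 were recovered. Far fewer genes were changed there than were called in the data, so that figure cannot be carried over. Changes of the size of most members here may still be missed with 3 arrays a group.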
